A study of Mus musculus with 12 samples.

Results

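The amygdala was compared between C57/BL6 mice whose box:zone ratio rose by at least 0.1 during a social interaction test and mice whose ratio did not. Of the 12 female mice sequenced, 10 entered the comparison. The box:zone ratio, the time a mouse spent in the box beside the stranger relative to the time in the surrounding zone, was taken from the sample labels for windows of 3, 5 and 10 min from the start. Mice whose ratio at 10 min exceeded that at 3 min by at least 0.1 formed the rising group (mice 1, 3, 7, 8 and 11), and those with a smaller change formed the non-rising group (mice 2, 6, 9, 10 and 12). Mouse 4 has no ratio at 3 min, and mouse 5 was set aside in the study as an outlier in gene expression. The mice were untreated, age-matched animals of 1 inbred strain, each was tested once for anxiety-like behavior, in a light/dark box (LD) and an elevated plus maze (EPM), and once for social interaction, and bilateral amygdala was then dissected without anesthesia and its mRNA sequenced in a single run, with 1 library per mouse.

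The amygdala links the sight, sound and smell of another animal to approach, avoidance and arousal. Its basolateral nuclei hold mostly glutamatergic neurons like those of the cortex, and its central and medial nuclei mostly GABAergic neurons that carry many peptides. Medial and central nuclei receive oxytocin and vasopressin fibers and express receptors for both peptides and for sex steroids, and these systems are known for their part in social recognition and social approach. Cortex, striatum, hippocampus and hypothalamus all border the dissected tissue, so genes that mark those regions can enter a library in differing amounts.

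In the rising group the ratio changed from 0.943 to 1.05 in mouse 1, from 1.70 to 2.62 in mouse 3, from 0.236 to 0.821 in mouse 7, from 1.15 to 1.58 in mouse 8 and from 0.989 to 1.39 in mouse 11. In the non-rising group it changed from 0.801 to 0.495 in mouse 2, from 0.797 to 0.748 in mouse 6, from 1.84 to 1.20 in mouse 9, from 1.45 to 1.50 in mouse 10 and from 0.691 to 0.668 in mouse 12. These values chose the groups and are a description only. The members nearest the threshold were mouse 1, with a change of 0.105, and mouse 10, with a change of 0.0505. All 5 rising mice had gained by 5 min, by 0.154 to 0.630, whereas from 5 to 10 min only mice 3 and 11 among them gained further, by 0.504 and 0.240. In the non-rising group mouse 9 had the steepest decline, with a change of -0.640, and mice 6 and 12 stayed nearly level, with changes of -0.0489 and -0.0225.

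**Figure D1:**
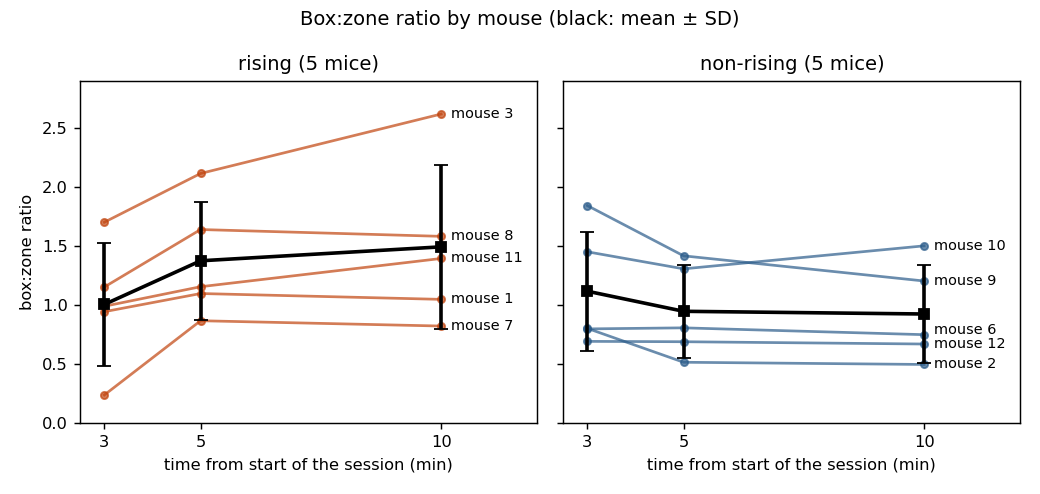
Box:zone ratio of each mouse (vertical axis, no unit) for windows of 3, 5 and 10 min from the start (horizontal axis), with colored lines for single mice and black squares and bars for the mean ± SD of 5 mice. The rising mice start between 0.236 and 1.70 and end between 0.821 and 2.62, and the non-rising mice start between 0.691 and 1.84 and end between 0.495 and 1.50, so the levels overlap at each time and the change separates the groups.

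The groups were next compared on the 4 behavior measures that the grouping did not use. Open-arm time in the EPM was 16.7 ± 6.63% (SD, n = 5) in rising and 12.7 ± 13.1% (SD, n = 5) in non-rising mice, a difference of 3.95 percentage points within the spread of either group (exact permutation test, two-sided p = 0.556). Total entries into the arms numbered 26.6 ± 6.58 and 27.4 ± 14.0 (exact permutation test, two-sided p = 0.944), and mouse 1 stood below the other rising mice with 15. In the LD, time in the light was 26.1 ± 6.82% and 24.0 ± 13.7% (exact permutation test, two-sided p = 0.818), and distance in the light was 31.4 ± 5.82% and 27.7 ± 10.5% (exact permutation test, two-sided p = 0.5). Adjusted over the 4 measures, each exact p was 0.944. On all 4 measures the non-rising mice had the larger spread, and their range enclosed that of the rising mice.

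The study's anxiety states, which it drew from a principal component of these same libraries, were not balanced. The rising group held 3 anxious mice (1, 8 and 11) and 2 less anxious mice (3 and 7), and the non-rising group 4 more anxious mice (2, 6, 9 and 10) and 1 less anxious mouse (12). Outside the less anxious state the grouping and the anxiety state therefore cannot be told apart.

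The libraries held 31745630 to 40120236 counts in rising and 33278984 to 45142355 in non-rising mice (exact permutation test, two-sided p = 0.246), and a read was found for 26378 to 28196 genes per mouse. Levels are given in CPM, the reads of a gene scaled to a common library size with TMM factors, and log2 fold changes (FC) as rising minus non-rising with their standard error (SE). None of the first 5 principal components of expression separated the groups. PC1, with 21.4% of the variance, had mean scores of 0.879 and -0.879 (exact permutation test, two-sided p = 0.825), and the smallest p belonged to PC2, with 15.8% of the variance (exact permutation test, two-sided p = 0.119, adjusted over 5 components 0.503).

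Across the transcriptome, no gene passed an adjusted p-value of 0.05. Of 26651 genes tested with edgeR's quasi-likelihood test and Benjamini-Hochberg adjustment, 0 passed (0%), and the smallest adjusted p was 0.119, for Ccn2. At an unadjusted p under 0.05 there were 1198 genes (4.5%), of which 438 (1.64%) were higher and 760 (2.85%) lower in rising mice. The share of 4.5% is close to what that threshold allows without any difference. DESeq2's Wald test called 8 of the 19613 genes to which it gave an adjusted p, 2 higher (Spink8 and Tac2) and 6 lower (Ccn2, Cenpa, Pamr1, Foxp1, Wnt5a and Ttll13) in rising mice, and 1116 genes had an unadjusted p under 0.05 by that test. Among 15891 genes with a mean of at least 1 CPM, the 5 rising mice lay wholly outside the range of the 5 non-rising mice for 98 genes (0.617%), above it for 47 (0.296%) and below it for 51 (0.321%). Complete separation of 5 from 5 mice has a two-sided p of 0.00794 in the exact permutation test. The share of 0.617% is not above what that allows without any difference. Of the genes of at least 1 CPM, 48.3% had a log2 FC below 0. The direction of a gene was related to its base composition. Among the 3957 genes richest in GC, 193 were lower and 31 higher at an unadjusted p under 0.05 with a median log2 FC of -0.05, and among the 3957 poorest in GC 42 were lower and 93 higher with a median of 0.05. The relation of GC content to the level within each mouse overlapped between the groups (exact permutation test, two-sided p = 0.397).

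**Figure D2:**
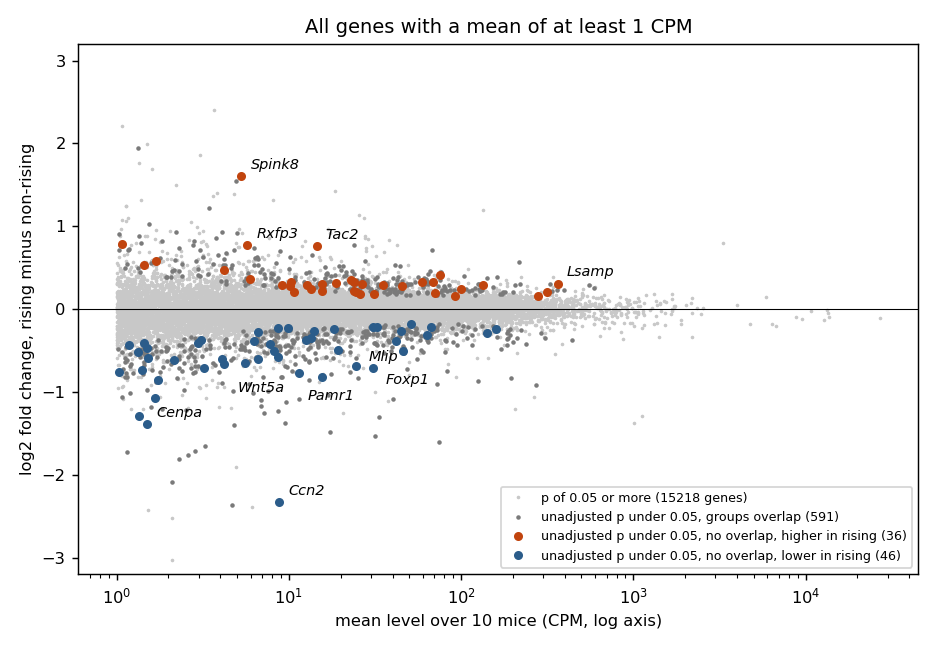
Log2 fold change (vertical axis) against the mean level over 10 mice in CPM (horizontal log axis) for the 15891 genes of at least 1 CPM, of which 5 lie beyond the vertical range. The 36 red and 46 blue points are genes with an unadjusted p under 0.05 whose groups did not overlap, higher and lower in rising mice, and Ccn2 lies apart at -2.33.

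Ccn2 (chromosome 10, 24595442 to 24598683, GRCm38) encodes a secreted matricellular protein, formerly named connective tissue growth factor, which in the cortex marks neurons of the deepest layer. Its level was 2.44, 3.51, 2.86, 2.38 and 3.44 CPM in rising mice 1, 3, 7, 8 and 11, and 19.5, 8.91, 22.1, 15.3 and 7.50 CPM in non-rising mice 2, 6, 9, 10 and 12. Every non-rising mouse had more than 2 times the level of every rising mouse, and the rising mice varied little among themselves. The log2 FC was -2.33 ± 0.29 (edgeR, unadjusted p = 4.47e-06, Benjamini-Hochberg adjusted p = 0.119), and DESeq2's adjusted p was 1.34e-12. In the less anxious mice, where both groups are present, Ccn2 stood at 3.51 and 2.86 CPM in rising mice 3 and 7 and at 7.50 CPM in non-rising mouse 12. Ccn2 was named for groups without overlap, so the order of these mice was fixed by that choice. In edgeR's test Ccn2 passed when mouse 6 (adjusted p = 0.0385) or mouse 12 (adjusted p = 0.00569) was left out, and when mouse 5 was added to the non-rising group (adjusted p = 0.0247). With any other mouse left out no gene passed. The smallest adjusted p of any gene in edgeR's test then ran from 0.0947 without mouse 8 to 0.583 without mouse 11. No gene passed either with a threshold of 0, which moves mouse 10 to the rising group.

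Other genes with lower values in rising mice included regulators of neuronal identity and development. Foxp1, a forkhead transcription factor of cortical and striatal neurons (chromosome 6, 98925338 to 99522721), stood at 17.7, 24.6, 29.1, 23.8 and 21.6 CPM in rising mice and at 35.3, 30.2, 36.7, 42.8 and 46.4 CPM in non-rising mice, in order of mouse number. Mouse 7 and mouse 6 lay closest to each other without overlap, and its log2 FC was -0.71 ± 0.14 (edgeR, unadjusted p = 0.00017). Wnt5a, a ligand of non-canonical Wnt signaling (chromosome 14, 28504750 to 28527448), ran from 7.28 to 9.90 CPM in rising and from 10.6 to 18.5 CPM in non-rising mice (log2 FC -0.78 ± 0.16). Pamr1, which encodes a secreted protein with a peptidase-like domain (chromosome 2, 102550012 to 102643041), was tightly held between 10.8 and 11.8 CPM in the rising group and spread from 14.7 to 27.7 CPM in the other (log2 FC -0.82 ± 0.15).

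Cenpa, Ttll13 and Wdr62 lay at low levels in both groups. Cenpa, the centromeric histone H3 variant, ran from 0.658 to 1.04 CPM in rising and from 1.25 to 3.34 CPM in non-rising mice (log2 FC -1.39 ± 0.25). Ttll13, a tubulin polyglutamylase, ran from 0.522 to 0.917 CPM and from 0.970 to 2.65 CPM (log2 FC -1.29 ± 0.27). Wdr62, a spindle pole protein, ran from 0.717 to 1.49 CPM and from 1.75 to 3.26 CPM (log2 FC -0.86 ± 0.24). The remaining lower genes that the naming rule took without overlap were Mlip, Fam222a, Triobp, Rabep2 and Eln, with log2 FC between -0.69 and -0.37. Among them Eln, which encodes elastin of vessel walls, ran from 5.19 to 8.19 CPM in rising and from 8.62 to 13.5 CPM in non-rising mice.

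Spink8 and Tac2 led the genes with higher values in rising mice. Spink8 (chromosome 9, 109812280 to 109826633) encodes a Kazal-type serine protease inhibitor that in the brain is known as a marker of hippocampal CA1 pyramidal neurons. It stood at 5.22, 6.80, 12.3, 9.65 and 6.07 CPM in rising mice and at 2.88, 3.67, 2.51, 1.42 and 2.65 CPM in non-rising mice. The lowest rising mouse lay above the highest non-rising mouse, and the log2 FC was 1.61 ± 0.27 (edgeR, unadjusted p = 4.75e-05; DESeq2 adjusted p = 2.10e-05). Tac2 (chromosome 10, 127724478 to 127731768) encodes neurokinin B, a tachykinin peptide of central and medial amygdala neurons. It stood at 20.6, 23.1, 18.4, 12.2 and 16.9 CPM in rising mice and at 10.17, 10.7, 12.1, 10.8 and 10.02 CPM in non-rising mice. Mouse 8 lay just above the non-rising group, whose 5 values were close together, and the log2 FC was 0.76 ± 0.15 (edgeR, unadjusted p = 0.00015; DESeq2 adjusted p = 0.00623). In the less anxious mice Tac2 stood at 23.1 and 18.4 CPM in rising mice 3 and 7 and at 10.02 CPM in non-rising mouse 12, and Spink8 at 6.80 and 12.3 against 2.65 CPM. With anxiety state as a covariate, mice 3, 7 and 12 alone separate the groups in the fit. The log2 FC was then 1.85 for Spink8, 1.05 for Tac2, -0.79 for Foxp1 and -1.24 for Ccn2. These genes were named for groups without overlap, so the signs here and the order of the less anxious mice were fixed by that choice. Tacr3, the receptor of neurokinin B, had a log2 FC of 0.07 ± 0.21.

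Rxfp3, the receptor of the arousal-related peptide relaxin-3 (chromosome 15, 11033717 to 11037991), ran from 6.00 to 8.22 CPM in rising and from 2.37 to 5.93 CPM in non-rising mice (log2 FC 0.77 ± 0.20). The separation was narrow, since mouse 2 lay just below rising mice 1 and 8. Pcdh17, Cdh7 and Lsamp, named without overlap, are genes of cell adhesion. Such genes were not counted over all genes, and 0 of 24 synaptic adhesion and scaffold genes were without overlap. The protocadherin Pcdh17 ran from 76.9 to 102 CPM in rising and from 54.8 to 75.8 CPM in non-rising mice (log2 FC 0.41 ± 0.11), Cdh7, a cadherin, from 24.3 to 30.4 CPM and from 19.97 to 22.2 CPM (log2 FC 0.33 ± 0.09), and Lsamp, an adhesion molecule named for its presence in the limbic system, from 364 to 434 CPM and from 301 to 350 CPM (log2 FC 0.31 ± 0.09). The other genes named without overlap in this direction were Zfp831, Epb41l4b, Iqgap2, Ankrd34b, Rfx2 and Ak9, with log2 FC between 0.29 and 0.79. By edgeR's test with Benjamini-Hochberg adjustment, each gene in this and the preceding paragraphs had an adjusted p of at least 0.119.

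**Figure D3:**
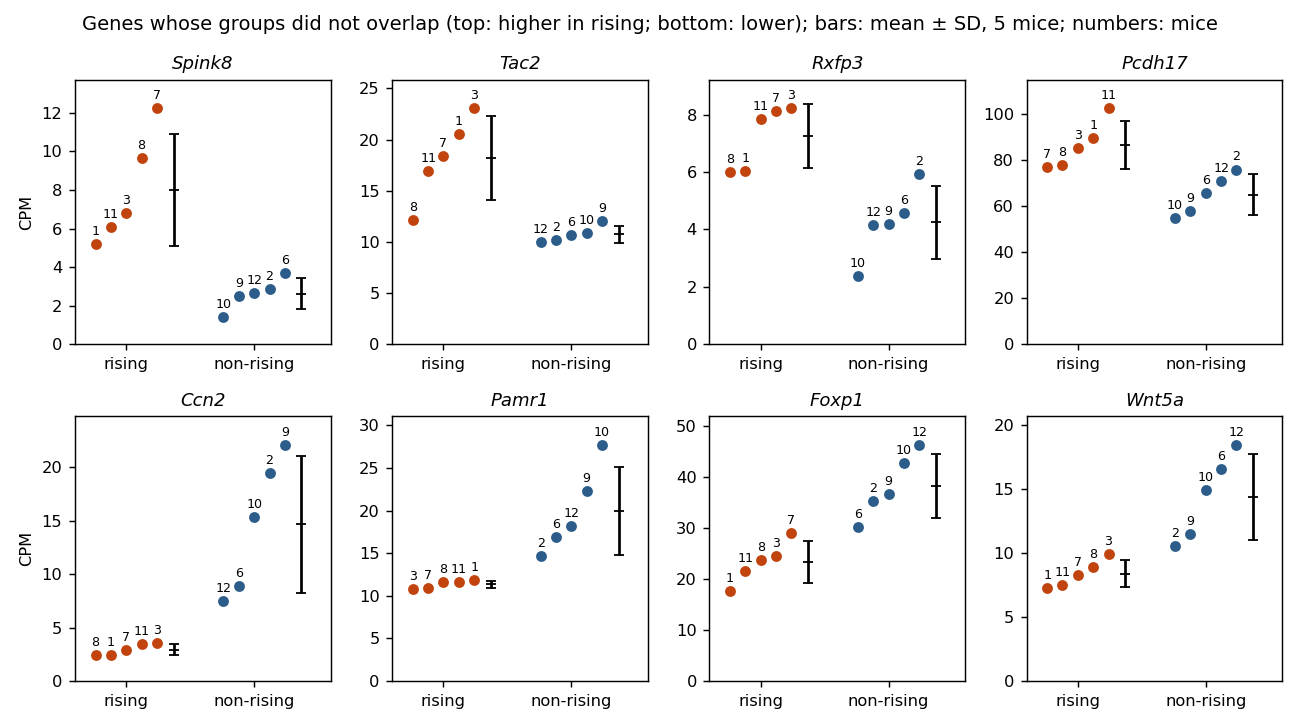
CPM (vertical axes, starting at 0) of 8 genes in rising (red) and non-rising (blue) mice, with points ordered by level within a group and numbered by mouse, and bars for the mean ± SD of 5 mice. In each panel the groups are apart, with the widest gap for Ccn2 (at most 3.51 CPM in rising and at least 7.50 CPM in non-rising mice).

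Of the 8 genes of the oxytocin and vasopressin system, 3 (Oxt, Avp and Avpr1b) were lower and 0 higher at an unadjusted p under 0.05 (backgrounds 2.85% and 1.64%), and 0 passed adjustment. Oxt, the precursor of oxytocin, and Avp, the precursor of vasopressin, are neighbors on chromosome 2 in opposite orientations. Their promoters, 250 bases before to 50 bases after the start in RefSeq's table for GRCm38.p6, are shown since both peptide genes had the largest fold changes of the system and Oxt is known as a target of nuclear receptors.
Oxt, chr2:130575919-130576218, plus strand: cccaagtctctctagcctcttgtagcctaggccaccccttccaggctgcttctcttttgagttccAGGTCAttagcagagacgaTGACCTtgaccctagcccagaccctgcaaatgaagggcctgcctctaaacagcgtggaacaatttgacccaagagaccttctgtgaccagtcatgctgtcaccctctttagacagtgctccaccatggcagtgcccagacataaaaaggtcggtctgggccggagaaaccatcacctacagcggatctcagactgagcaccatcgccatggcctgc
Avp, chr2:130582539-130582838, minus strand: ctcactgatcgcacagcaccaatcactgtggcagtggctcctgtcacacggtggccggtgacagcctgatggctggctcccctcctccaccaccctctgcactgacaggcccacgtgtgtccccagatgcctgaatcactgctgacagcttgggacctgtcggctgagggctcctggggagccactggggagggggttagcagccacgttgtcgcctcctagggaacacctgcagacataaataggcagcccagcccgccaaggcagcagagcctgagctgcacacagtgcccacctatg
Capitals mark the nuclear receptor half-site AGGTCA on either strand, found 2 times in the window of Oxt, starting at -185 and -166, and 0 times in that of Avp. Of 32851 promoters of that length, 16.3% held at least 1 such match and 1.81% at least 2.

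Oxt was close to the detection limit in rising mice, with 3, 12, 3, 5 and 6 reads in mice 1, 3, 7, 8 and 11 against 7, 59, 33, 31 and 16 reads in mice 2, 6, 9, 10 and 12. This corresponds to 0.0860, 0.335, 0.0746, 0.137 and 0.179 CPM in rising and 0.156, 1.78, 0.752, 0.864 and 0.419 CPM in non-rising mice. Rising mice 3 and 11 lay above non-rising mouse 2, so the groups overlapped, and the log2 FC was -2.26 ± 0.60 (edgeR, unadjusted p = 0.00231, adjusted p = 0.994). Avp stood at 3.21, 1.28, 0.398, 2.30 and 0.389 CPM in rising mice and at 2.61, 21.4, 7.39, 3.57 and 4.17 CPM in non-rising mice (log2 FC -2.36 ± 0.80, edgeR, unadjusted p = 0.0159). Mouse 6 had the highest level of both peptides, and the Avp groups overlapped where rising mouse 1 lay above non-rising mouse 2. The log2 FC without mouse 6 was -1.73 for Oxt and -1.54 for Avp, and with anxiety state as a covariate that of Oxt was -1.05 (edgeR, unadjusted p = 0.381). Both genes are also markers of hypothalamic neurons, whose bodies lie outside the amygdala, and their levels may count cells or RNA per cell, which bulk tissue cannot tell apart. The summed level of the 7 hypothalamic peptides ran from 1.82 to 4.62 CPM in rising and from 4.04 to 24.3 CPM in non-rising mice (exact permutation test, two-sided p = 0.0159, adjusted over 21 lists 0.333). Avp averaged 7.83 of the 9.98 CPM of this sum in non-rising and 1.52 of the 3.02 CPM in rising mice. The sum therefore largely repeats the values of Avp and is no separate result. Of these 7, Oxt and Avp were lower and Ghrh higher at an unadjusted p under 0.05 (backgrounds 2.85% and 1.64%). Agrp, Pmch, Hcrt and Gnrh1 had log2 FC between -0.52 and -0.01, and each averaged less than Oxt in non-rising mice. The part of hypothalamic tissue in the peptide results was not tested.

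Among the receptors, Oxtr, the oxytocin receptor, stood at 14.2, 17.9, 19.96, 22.7 and 16.8 CPM in rising and at 17.4, 16.4, 16.3, 15.3 and 14.6 CPM in non-rising mice (log2 FC 0.20 ± 0.12). The groups overlapped, with mouse 1 below every non-rising mouse and mice 3, 7 and 8 above. Avpr1a, the main vasopressin receptor of the forebrain, had a log2 FC of 0.43 ± 0.32 at 0.562 and 0.414 CPM on average, which turned to -0.40 with anxiety state as a covariate. Avpr1b, the vasopressin receptor of the pituitary and of hippocampal CA2, had a log2 FC of -1.65 ± 0.75 (edgeR, unadjusted p = 0.0448), but rested on 0 to 8 reads per mouse.

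Sex steroid receptors belong to the same social circuits. Of 6 genes of sex steroid receptors and aromatase, 1 was higher and 0 were lower at an unadjusted p under 0.05 (backgrounds 1.64% and 2.85%). Esr1, the estrogen receptor alpha, stood at 15.8, 14.0, 10.7, 17.1 and 25.9 CPM in rising and at 15.9, 11.7, 8.32, 9.47 and 7.87 CPM in non-rising mice. Mouse 11 was highest and mice 2 and 6 overlapped with the rising group (log2 FC 0.65 ± 0.24, edgeR, unadjusted p = 0.0217). Estrous stage is not given in the labels.

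**Figure D4:**
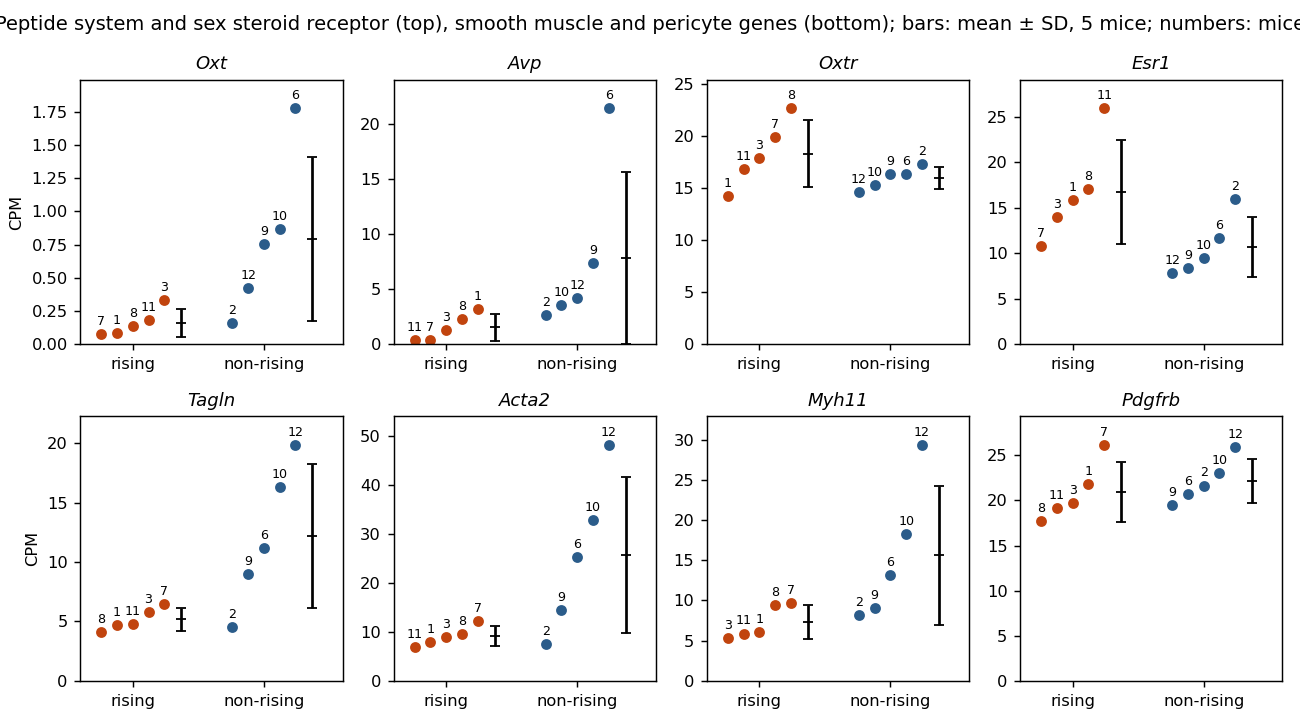
CPM (vertical axes, starting at 0) of 4 genes of the peptide and sex steroid systems (top) and of 3 smooth muscle genes with a pericyte gene (bottom) in rising (red) and non-rising (blue) mice, numbered by mouse, with bars for the mean ± SD of 5 mice. Mouse 6 carries the highest Oxt and Avp, mice 10 and 12 the highest Tagln, Acta2 and Myh11, and Pdgfrb overlaps between the groups.

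Peptides of amygdala neurons other than Tac2 had log2 FC in both directions, from -0.44 for Cck to 0.32 for Nts, with SE up to 0.58 for Pdyn. Of 16 peptide genes 1, Tac2, was higher and 0 were lower at an unadjusted p under 0.05 (backgrounds 1.64% and 2.85%). The median log2 FC was 0.05, against -0.01 over all genes tested. Crh, corticotropin-releasing hormone, stood at 5.09 ± 0.928 CPM in rising and 5.91 ± 0.672 CPM in non-rising mice (SD, log2 FC -0.21 ± 0.15). Cck, the cholecystokinin precursor, had the largest difference among the others, at -0.44 ± 0.25, and with anxiety state as a covariate its log2 FC was 0.44. Of the 23 receptors of such peptides 2 were higher and 0 lower at an unadjusted p under 0.05 (backgrounds 1.64% and 2.85%). Vipr2, a receptor of vasoactive intestinal peptide, ran from 1.28 to 4.04 CPM in rising and from 0.813 to 1.85 CPM in non-rising mice (log2 FC 0.82 ± 0.31). Npy2r, a neuropeptide Y receptor, ran from 32.8 to 42.8 CPM and from 21.5 to 41.2 CPM (log2 FC 0.39 ± 0.16), with mouse 2 alone among non-rising mice in the rising range. Of 8 opioid genes 1, Oprl1, the nociceptin receptor, was higher at an unadjusted p under 0.05 (log2 FC 0.31 ± 0.12, background 1.64%), and the other 7 had an unadjusted p above 0.05.

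Among markers of amygdala nuclei, the list for the central and medial nuclei held 2 higher genes of 10 at an unadjusted p under 0.05, Tac2 and Prkcd (background 1.64%). Prkcd encodes a protein kinase C isoform that marks a class of central amygdala neurons, and averaged 14.6 ± 4.01 CPM in rising and 10.7 ± 1.87 CPM in non-rising mice (SD, log2 FC 0.44 ± 0.20, edgeR, unadjusted p = 0.0428). In the list as a whole 5 genes lay above and 5 below 0, and its summed level ran from 432 to 792 CPM in rising and from 420 to 749 CPM in non-rising mice. None of the 8 basolateral markers passed an unadjusted p of 0.05, with log2 FC between -0.26 and 0.41. Both sets were detected in every mouse, with basolateral markers summing to between 1697 and 2897 CPM, but no tissue outside the amygdala was measured beside them.

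Of the 22 glutamate receptor genes 13 lay above and 9 below 0, with a median of 0.04, and 2, Grin3a and Gria1, were higher and 0 lower at an unadjusted p under 0.05 (backgrounds 1.64% and 2.85%). Grin3a, an NMDA receptor subunit that lowers calcium entry, stood at 70.3, 90.0, 82.9, 89.5 and 88.3 CPM in rising and at 62.0, 66.9, 63.1, 62.3 and 74.7 CPM in non-rising mice. The groups overlapped through mice 1 and 12 alone (log2 FC 0.36 ± 0.09, edgeR, unadjusted p = 0.00145). Gria1, an AMPA receptor subunit inserted at synapses during plasticity, ran from 562 to 696 CPM and from 414 to 625 CPM (log2 FC 0.26 ± 0.11). The 14 GABA-A receptor subunits included 0 genes at that threshold in either direction, and 11 of them lay above 0. Among 24 synaptic adhesion and scaffold genes, 1 was higher and 1 lower at an unadjusted p under 0.05 (backgrounds 1.64% and 2.85%). Nlgn1, a postsynaptic adhesion partner of neurexins, was higher (log2 FC 0.20 ± 0.08) and Nxph3, a secreted neurexin ligand, was lower (log2 FC -0.82 ± 0.36). With anxiety state as a covariate the log2 FC of Nxph3 turned to 0.38.

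Genes of neuronal activity were examined next, with Fos first. Fos stood at 19.5, 4.29, 31.9, 36.3 and 24.3 CPM in rising and at 36.2, 23.2, 7.14, 43.0 and 20.004 CPM in non-rising mice. The values spanned nearly the same range in both groups (log2 FC -0.16 ± 0.60), and the sign turned when mouse 3 or mouse 10 was left out. Of 24 immediate early genes 17 lay below 0, and the median log2 FC was -0.16, against -0.01 over all genes tested. Among genes of at least 1 CPM, 48.3% lay below 0. The 24 directions are not separate observations, since they come from the same 10 mice and related genes. Of the 24, 1 (Jund) was lower and 0 were higher at an unadjusted p under 0.05 (backgrounds 2.85% and 1.64%). Jund, an AP-1 transcription factor, ran from 40.8 to 84.6 CPM in rising and from 52.7 to 148 CPM in non-rising mice (log2 FC -0.74 ± 0.26). Of 14 corticosteroid receptor and target genes 0 passed that threshold, and the glucocorticoid receptor gene Nr3c1 had a log2 FC of 0.21 ± 0.12.

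Dbp, a clock output transcription factor, was the single clock gene of 19 without overlap. Among genes of at least 1 CPM, 0.321% were lower and 0.296% higher without overlap. It stood at 37.1, 30.6, 39.3, 39.0 and 36.4 CPM in rising and at 40.8, 46.8, 58.6, 49.2 and 42.9 CPM in non-rising mice (log2 FC -0.39 ± 0.11, edgeR, unadjusted p = 0.00315). The hour of dissection is not given in the labels. The other 18 clock genes had an unadjusted p above 0.05 (backgrounds under it 2.85% lower and 1.64% higher). Among 19 chaperones, 1 was higher and 1 lower at an unadjusted p under 0.05 (backgrounds 1.64% and 2.85%). The higher gene, Hsph1, a cochaperone of the heat shock response, was also the only one without overlap (background 0.296%). It separated the groups by a small margin, from 289 to 298 CPM in rising and from 246 to 273 CPM in non-rising mice (log2 FC 0.16 ± 0.07). Dnajb6 was lower (log2 FC -0.33 ± 0.13), and its log2 FC turned to 0.111 with anxiety state as a covariate.

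Dopamine receptors and genes of striatal-type neurons were all on 1 side. All 16 had log2 FC below 0, between -0.88 and -0.02 with a median of -0.40, and 0 of the 16 had an unadjusted p under 0.05. Drd1, the D1 dopamine receptor, stood at 18.8, 18.1, 29.2, 13.9 and 10.5 CPM in rising and at 12.5, 24.2, 18.9, 24.8 and 38.0 CPM in non-rising mice. Mouse 12 was highest for both Drd1 and Drd2, the groups overlapped, and without mouse 12 the log2 FC of Drd2 turned from -0.59 to 0.08. Since the same kind of neuron expresses most of these genes, the 16 directions are not separate observations.

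The cortical neuron markers Tbr1 and Cux2, from separate lists, had lower means in rising mice. Of the 7 excitatory markers 5 lay below and 2 above 0. Of the 8 hippocampus and cortex markers 3 lay below and 5 above 0, with a median log2 FC of 0.007. Tbr1, a factor of deep-layer glutamatergic neurons, ran from 43.8 to 60.6 CPM in rising mice and reached 77.3, 85.6 and 94.9 CPM in mice 6, 9 and 10, whereas mice 2 and 12 stood at 47.4 and 47.0 CPM (log2 FC -0.51 ± 0.20), and with anxiety state as a covariate its log2 FC was 0.059. Cux2, a factor of upper cortical layers from the hippocampus and cortex list, ran from 33.3 to 45.1 CPM in rising and from 40.1 to 65.5 CPM in non-rising mice (log2 FC -0.45 ± 0.13, edgeR, unadjusted p = 0.00324). The summed level of the 7 excitatory markers, from 3099 to 4170 CPM in rising and from 2822 to 4093 CPM in non-rising mice, did not separate the groups (exact permutation test, two-sided p = 0.730), nor did that of the 8 hippocampus and cortex markers (exact permutation test, two-sided p = 0.571). The part of cortical or hippocampal tissue in the results for Ccn2 and Spink8 was not tested.

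Of 7 genes for pericytes and smooth muscle, 3 were lower in rising mice at an unadjusted p under 0.05 (background 2.85%), and all 3 are contractile or cytoskeletal genes of smooth muscle. The summed level of the 7 genes ran from 109.6 to 148 CPM in rising and from 124 to 213 CPM in non-rising mice and did not separate the groups (exact permutation test, two-sided p = 0.278, adjusted over 21 lists 0.852). Acta2, smooth muscle actin, stood at 8.03, 8.89, 12.2, 9.56 and 6.999 CPM in rising and at 7.54, 25.2, 14.5, 32.8 and 48.2 CPM in non-rising mice (log2 FC -1.49 ± 0.44, edgeR, unadjusted p = 0.00792). The non-rising mice 6, 9, 10 and 12 exceeded every rising mouse and mouse 2 lay within the rising range. Tagln, the actin-binding protein transgelin, ran from 4.14 to 6.51 CPM in rising mice and stood at 4.51, 11.2, 9.03, 16.3 and 19.9 CPM in non-rising mice (log2 FC -1.23 ± 0.33), and Myh11, smooth muscle myosin, ran from 5.35 to 9.69 CPM and stood at 8.21, 13.2, 9.005, 18.2 and 29.4 CPM (log2 FC -1.09 ± 0.36). The order of the non-rising mice was the same for the 3 genes, with mice 12, 10 and 6 on top and mouse 2 lowest. Cnn1 and Pln, further genes of smooth muscle that were picked after their values were seen, had log2 FC of -1.74 ± 0.43 and -1.08 ± 0.30. The pericyte genes Pdgfrb, Rgs5, Kcnj8 and Abcc9 had log2 FC between -0.08 and 0.17, and the endothelial markers split, with 5 above and 5 below 0. Eln, given above, was named for groups without overlap, so its direction was fixed by that choice, and the cells that expressed it were not measured. All 7 markers of the meninges, which were stripped before dissection, had log2 FC below 0, with 0 at an unadjusted p under 0.05. The lowest value was -1.08 for Col3a1. Their summed level did not separate the groups (exact permutation test, two-sided p = 0.397). The part of vessels or meninges in these results was not tested.

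Of the glial lists, all 10 astrocyte markers lay above 0 with a median of 0.11 and all 11 oligodendrocyte markers below 0 with a median of -0.18. Among genes of at least 1 CPM, 48.3% lay below 0. Slc1a3, a glutamate transporter of astrocytes, was the 1 astrocyte marker higher at an unadjusted p under 0.05 (background 1.64%). It averaged 608 ± 107 against 498 ± 58.5 CPM (SD, log2 FC 0.29 ± 0.13), and 0 oligodendrocyte markers passed. The summed levels overlapped between groups, at 3270 to 4500 and 3273 to 3831 CPM for astrocytes and 1725 to 3447 and 2257 to 3679 CPM for oligodendrocytes. Neither sum separated the groups (exact permutation test, two-sided p = 0.31 and 0.39). Microglial markers lay above 0 for 11 of 12 genes, with log2 FC between -0.10 and 0.19. Since cells of 1 type express the markers of a list together, the directions within each list are not separate observations. None of the 21 summed levels of cell type and RNA lists passed after adjustment, the smallest exact p being that of the hypothalamic peptides. The 13 mitochondrially encoded transcripts all lay below 0, between -0.34 and -0.01, with summed levels of 93357 to 151310 CPM in rising and 101570 to 147000 CPM in non-rising mice. Their sum did not separate the groups either (exact permutation test, two-sided p = 0.571).

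Of 8 pituitary hormone genes 7 lay above 0, and 1, Cga, had an unadjusted p under 0.05 (background 1.64%). Cga, the common alpha subunit of glycoprotein hormones, had 0, 2, 0, 4 and 92 reads in rising mice 1, 3, 7, 8 and 11, and 0, 0, 0, 0 and 2 reads in non-rising mice. Mouse 11 thus held nearly all of these reads, and with anxiety state as a covariate the log2 FC of Cga turned from 5.41 to -0.90. Gh, growth hormone, stood at 1.49, 0.558, 1.42, 0.384 and 1.97 CPM in rising and at 0.134, 0, 0.0228, 0.167 and 1.18 CPM in non-rising mice (log2 FC 1.94 ± 0.93). Rising mice 1, 7 and 11 and non-rising mouse 12 were highest, and the groups overlapped through mouse 12. The summed level of 8 pituitary genes was 18.6 CPM in mouse 11 and between 3.21 and 6.45 CPM in the other rising mice, and between 2.61 and 4.90 CPM in non-rising mice (exact permutation test, two-sided p = 0.0714, adjusted over 21 lists 0.75). The log2 difference of the summed level was 0.85, and 0.44 without mouse 11, and as a mean z-score over the genes the difference was 0.67 (exact permutation test, two-sided p = 0.0238, adjusted 0.25).

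Further pathways gave counts near the background. Of 20 interferon response and MHC class I genes and 13 serotonin receptors, 0 passed an unadjusted p of 0.05 in either direction. Of 19 cholesterol synthesis genes 1, Insig1, was lower (log2 FC -0.27 ± 0.12) and 0 were higher at that threshold (backgrounds 2.85% and 1.64%). Of 14 hedgehog pathway genes 0 passed, and Ptch1, the hedgehog receptor, stood at 47.2 ± 18.1 CPM in rising and 47.0 ± 16.7 CPM in non-rising mice. Ece1, an enzyme that processes endothelin and other peptides, had a log2 FC of -0.53 ± 0.24 (edgeR, unadjusted p = 0.0518). Over the 591 genes of all 39 lists together, 15 were higher and 15 lower at an unadjusted p under 0.05, a share of 5.08% against 4.5% of all genes tested, and 0 passed adjustment by edgeR's test.

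**Figure D5:**
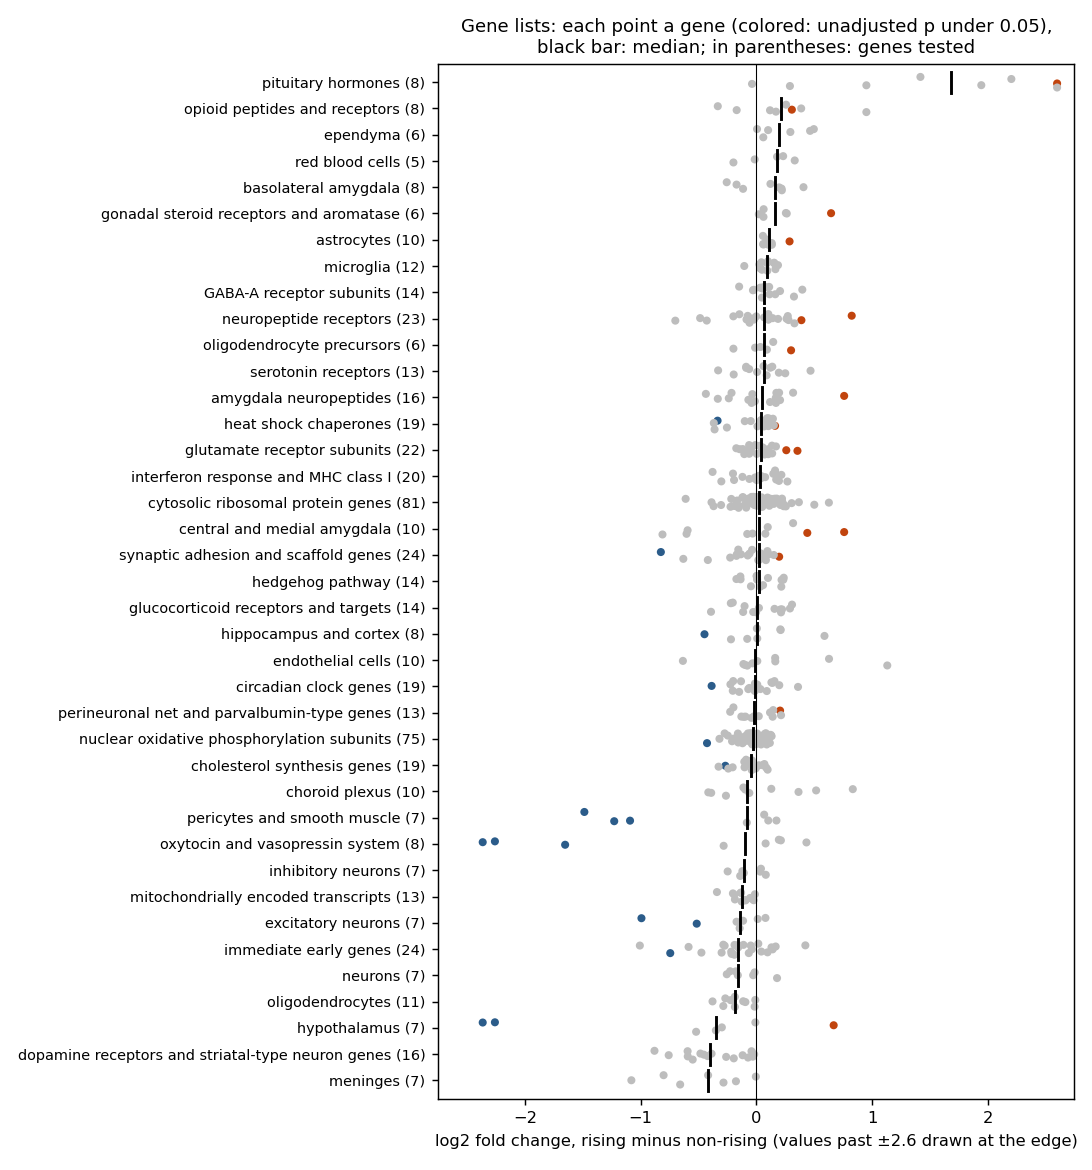
Log2 fold change (horizontal axis) of every tested gene in 39 gene lists (rows, with the number of genes tested), with black bars for the list's median, red and blue points for genes with an unadjusted p under 0.05 and grey points for the others. Most medians lie near 0, the striatal-type and meningeal lists lie lowest at -0.40 and -0.42, and the pituitary list is highest at 1.68; 2 points are drawn at the edge.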

How the data were processed

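Libraries were made from amygdala mRNA with a stranded kit and sequenced with single-end reads of 75 bases. The authors trimmed with cutadapt if needed, mapped reads with STAR to mm10, checked the alignments, and quantified transcripts with Salmon, which tximport collapsed to gene level. The authors deposited these estimated counts (expected counts) for 47729 genes as whole numbers, without normalization. The annotation release and use of strand are not given in the sources used here. Symbols and coordinates were taken from GENCODE M21 (GRCm38), which had an entry for 99.1% of genes.

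Groups followed the change of the box:zone ratio in the labels (0.1 or more against less). The members and the gene lists were chosen with earlier results of these data known. Genes reaching a sum of 10 reads across the 10 mice were tested with edgeR 4.0.16 (quasi-likelihood F-test, TMM, robust) in R 4.3.3, with Benjamini-Hochberg adjustment at 0.05. DESeq2 1.42.0 was run beside it. Exact permutation tests used all 252 arrangements of 5 mice against 5, with a smallest two-sided p of 0.00794. The genes named were up to 12 per direction with the smallest p among protein-coding genes of at least 1 CPM without overlap between groups (44 higher and 45 lower were eligible), up to 3 per list with the smallest p, and 11 set genes (Oxt, Oxtr, Avp, Avpr1a, Fos, Crh, Esr1, Drd1, Drd2, Ptch1 and Ece1). Some items are not reported here. Others are named as members of their list or marked as picked later. Over 45 pairs of mice the counts differed by a chi-square of at least 17.5 per gene on average, so no library was a copy of another. The procedures were tested on simulated data. Each mouse is 1 animal, tested and sequenced once, and intervals over mice hold no repeat measurement. Figures used matplotlib 3.10.9 in Python 3.11.15.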

Additional observations from a re-analysis of the deposited data

Results flagged for a closer look

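In 210 groups of 5 mice examined for 1 value far from the other 4 (Dixon's criterion), 14 were found, where chance gives about 1 in 20, or 10.5. Each is given as a value.

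Among peptide and pituitary genes, Avp stood at 21.4 CPM in non-rising mouse 6 against 2.61 to 7.39 CPM in the others of its group, and the summed hypothalamic peptides at 24.3 CPM in the same mouse against 4.04 to 9.42 CPM. Cga stood at 2.752 CPM in rising mouse 11 against 0 to 0.110 CPM, and at 0.0524 CPM in non-rising mouse 12, where the other 4 mice had 0 reads. The summed pituitary hormones stood at 18.6 CPM in mouse 11 against 3.21 to 6.45 CPM in the other rising mice. Crh stood at 7.08 CPM in non-rising mouse 10 against 5.45 to 5.84 CPM, and Ghrh at 0.573 CPM in rising mouse 1 against 0.323 to 0.390 CPM.

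Among genes of neurons and chaperones, Drd2 stood at 14.6 CPM in non-rising mouse 12 against 2.14 to 5.45 CPM, and Egr4 at 9.07 CPM in the same mouse against 19.6 to 22.1 CPM. Dnajb6 stood at 168 CPM in rising mouse 8 against 134 to 138 CPM, Nxph3 at 8.91 CPM in the same mouse against 5.84 to 6.16 CPM, and Gabra3 at 182 CPM in non-rising mouse 2 against 199 to 205 CPM.

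The summed meningeal markers stood at 49.0 CPM in rising mouse 1 against 109 to 133 CPM in the other rising mice. The same mouse made 15 entries into the arms of the maze against 28 to 31.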

How the results depend on the processing

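The count of 0 genes by edgeR's adjusted p became 8 with DESeq2's Wald test, 1 (Ccn2) with mouse 5 added to the non-rising group and 6 with the change of the ratio as a number, where 3 of the 6 had at least 3 reads in at most 2 mice and the other 3 had the same fitted values. It stayed 0 with DESeq2 size factors, either count filter, the robust option off, PC1 or anxiety state as a covariate, a GC offset and a threshold of 0, and ranged from 0 to 1 with each mouse left out in turn. At an unadjusted p under 0.05 the count was 765 with a threshold of 0, which moves mouse 10 to the rising group, and lay within 1.5 times of 1198 otherwise, 1036 with mice 6 and 11 left out together, a setting chosen after seeing the data. The share of lower genes at that threshold was 63.4% and lay between 54.2% and 65.6% elsewhere.

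Of 71 genes given in the text, 60 kept their direction in all of up to 22 alternatives. For genes named for groups without overlap, the direction with a mouse left out or with anxiety state as a covariate was largely fixed by that choice. With anxiety state as a covariate, log2 FC turned to -0.40 for Avpr1a, -0.28 for Ptch1, 0.059 for Tbr1, 0.111 for Dnajb6, 0.0108 for Egr4, 0.38 for Nxph3, 0.0246 for Cox8a, -0.90 for Cga and 0.44 for Cck. With a threshold of 0 it was 0.29 for Fos and -0.14 for Ptch1, and with a GC offset -0.0034 for Ptch1. With each mouse left out in turn it ran from -0.40 to 0.11 for Fos, from -0.95 to 0.0795 for Drd2 and from -0.21 to 0.14 for Ptch1. With a threshold of 0 the difference in open-arm time was -0.664 percentage points and that in entries 0.833. With each mouse left out the difference ran from -6.15 to 2.85 entries and from -0.823 to 7.75 percentage points of time in the light. The cause of these turns was not tested.

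No paired analysis was possible because each mouse number occurs in 1 group only.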

Other observations

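The mice outside the comparison can be set beside it as single values. Mouse 4, an anxious mouse without a ratio at 3 min, had a ratio of 0.768 at 5 min and 0.620 at 10 min, and mouse 5, the study's outlier, had a change of -0.0123 from 3 to 10 min. With TMM factors over all 12 mice, Ccn2 stood at 5.46 CPM in mouse 4 and 13.1 CPM in mouse 5, Spink8 at 7.08 and 8.27 CPM, and Tac2 at 22.8 and 11.6 CPM. Foxp1 stood at 30.8 and 30.7 CPM, Wnt5a at 7.63 and 20.8 CPM, Pamr1 at 8.81 and 15.7 CPM and Oxt at 1.29 and 0.551 CPM. Mouse 5, whose change would place it among the non-rising mice, had the Spink8 level of a rising mouse and a Ccn2 level in the non-rising range.

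The 202 gene names that the study lists for anxiety were chosen on these same mice, so they are no independent set, and the groups here are unbalanced in anxiety state. Of the 202, 167 had a log2 FC below 0 with a median of -0.30, 64 were lower and 7 higher at an unadjusted p under 0.05 (backgrounds 2.85% and 1.64% of all genes), and 0 passed adjustment by edgeR's test.

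Further list members had an unadjusted p under 0.05 without a place in the account above. Gpr17, a receptor of oligodendrocyte precursors on their way to myelination, averaged 55.2 CPM in rising and 44.8 CPM in non-rising mice (log2 FC 0.30 ± 0.13). Tnr, the matrix protein tenascin-R of perineuronal nets, averaged 215 and 186 CPM (log2 FC 0.21 ± 0.08). Cox8a, a subunit of cytochrome c oxidase, averaged 203 and 272 CPM (log2 FC -0.43 ± 0.19), and its log2 FC turned to 0.0246 with anxiety state as a covariate.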
